A study of Mus musculus with 6 samples.

Results

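The interferon-stimulated genes described here are 39 listed mouse genes, of which 37 were measured among 18194 genes with a probe set of their own. They were chosen by name: a gene was read from the probe sets whose array annotation gave exactly 1 symbol, equal to the listed one, and where several did, from the probe set with the highest mean over all arrays. Isg15 and Ifi44 were not measured under this rule, since Isg15 shares its probe set with a second symbol and no probe set carries the symbol Ifi44. Arrays of 2 groups were compared. The MCAO group is 3 arrays of adult male C57BL/6 mice killed 48 h after occlusion of the middle cerebral artery, a surgical model of ischemic stroke. The sham group is 3 arrays of mice of the same strain and sex killed 48 h after sham surgery. In both, total RNA came from the subventricular zone, the stem cell niche lining the lateral ventricle, taken on the side of the lesion in the MCAO mice. The labels do not say whether an array held tissue of 1 mouse or of several, so the p-values measure the spread between these samples only, which may be technical.

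Interferons are cytokines that cells release on sensing viral or misplaced nucleic acid and, in the type II class, that lymphocytes release on activation. Type I interferon acts through a receptor coupled to the kinases Jak1 and Tyk2, and a transcription factor complex that holds Stat2 and Irf9 then binds a promoter sequence called the interferon-stimulated response element (ISRE). Type II interferon acts mainly through a second sequence, the gamma-activated site (GAS). In brain, microglia, astrocytes and endothelial cells can all switch on these genes.

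Sox2, a transcription factor of neural stem cells, read 9.96, 9.87 and 9.55 log2 on the MCAO arrays and 9.90, 9.50 and 9.47 on the sham arrays. The median of all probe sets lay between 6.57 and 6.59. Over 9 markers of neural stem cells and neuroblasts the median was 8.4 to 8.8 on the sham arrays. It was 11.3 to 11.7 for 6 markers of striatal neurons and 11.8 to 12.7 for 5 of oligodendrocytes, so RNA of these cells was also present. MCAO 1 and sham 1 lay away from the remaining arrays along the principal component with 40.8% of the variance, and their poly-A labelling controls, averaged over 24 probe sets, read 7.63 in MCAO 1 and 7.92 in sham 1 against 8.76 to 9.17 elsewhere. Tissue was measured in bulk, so fewer cells of a type and less RNA per cell cannot be told apart.

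Most interferon-stimulated genes read higher after MCAO. Of the 37, 36 had a higher mean in MCAO, with a median difference of 0.62 log2 against −0.0064 over all genes tested. By limma's moderated test, with a Benjamini-Hochberg adjusted p under 0.05 over all genes, 13 rose, 0 fell and 24 did not pass. In the same fit 1.12% of all genes rose and 0.0165% fell. At an unadjusted p under 0.05, 29 of the 37 were higher and 0 lower, where 1151 of the 18194 genes were higher and 447 lower. All 3 MCAO values lay above all 3 sham values in 29 members, a pattern seen in 8.44% of all genes. With the sample number as a block, 25 members rose, against a background of 4.83%. The labels do not say what the numbers mark, and the pairing was inferred from these same data. The means differed by at least 2-fold, MCAO over sham, in 7 members (18.9%), against 0.495% of all genes.

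The count of 13 varied with the arrays used. It was 10 without MCAO 1, 14 without MCAO 2, 4 without MCAO 3, 7 without sham 1, 3 without sham 2 and 1 without sham 3, while the median difference stayed between 0.52 and 0.77 whichever array was left out. Gbp2 alone kept its call in all 6 of these fits, which have 3 arrays against 2. Without both arrays numbered 1, 13 members rose and the median difference was 0.56.

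**Figure D1:**
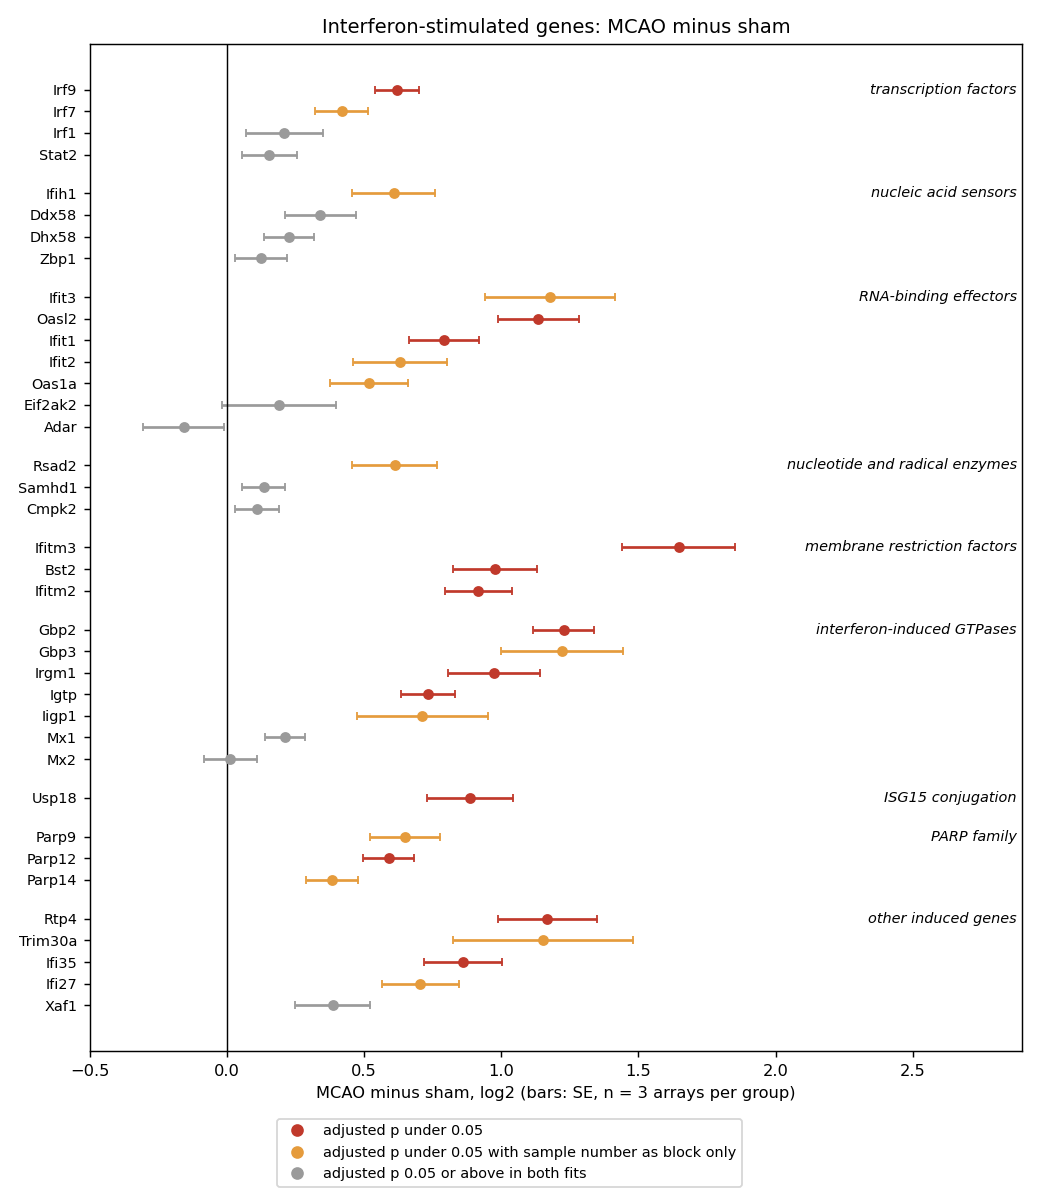
Difference between MCAO and sham (log2, MCAO minus sham) for the 37 measured interferon-stimulated genes, grouped by role; points are fitted differences and bars the standard error with 3 arrays per group. Red points passed without a block (13 genes), orange points only with the sample number as a block (12 genes), and Adar alone lies below 0.

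The promoters of these genes were searched for both elements, because they are the sequences through which interferon acts. Windows ran from 250 bases before to 50 bases after the annotated start (RefSeq, GRCm38.p6) and were available for 27 of the 37 measured genes. The ISRE core was written GAAANNGAAA, or TTTCNNTTTC on the other strand, where N is any base. It was present in 16 of the 27 (59.3%), against 3.6% of 14453 measured genes with a window and 4.0% of all 27025 genes with one. The GAS, written TTCNNNGAA on either strand, was present in 10 of the 27, against 8.6% of the measured genes. Among the 11 members with a window that rose, 7 held an ISRE core, and among the 16 that did not pass without the block, 9 did. Those shares were similar, at 63.6% and 56.2%. The genes were listed as interferon-stimulated, so a high share of these elements can follow from that choice and says nothing about MCAO. The cores and the GAS can overlap, as in Ifitm3 and Bst2, and a match describes the letters of the window only.

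The ISRE cores of the 7 rising members are shown with 15 bases on each side, then those of Ifit3 and Gbp3, which passed only with the block, and that of Eif2ak2, which held a core and did not pass. Sequences are 5′ to 3′ on the gene's strand, and capitals mark the cores, which run together where they overlap.
Ifitm3, chr7:141010701-141010757, minus strand: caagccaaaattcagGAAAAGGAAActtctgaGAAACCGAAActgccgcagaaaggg
Ifitm2, chr7:140955983-140956022, minus strand: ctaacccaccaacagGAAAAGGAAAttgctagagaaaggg
Bst2, chr8:71537572-71537617, minus strand: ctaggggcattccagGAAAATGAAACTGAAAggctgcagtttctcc
Gbp2, chr3:142620589-142620628, plus strand: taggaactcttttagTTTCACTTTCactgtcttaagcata
Irgm1, chr11:48871420-48871465, minus strand: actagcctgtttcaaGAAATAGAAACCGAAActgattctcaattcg
Igtp, chr11:58199507-58199546, plus strand: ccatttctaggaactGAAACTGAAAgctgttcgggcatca
Ifit1, chr19:34640770-34640828, plus strand: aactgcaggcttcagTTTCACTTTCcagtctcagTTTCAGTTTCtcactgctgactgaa
Ifit3, chr19:34583358-34583431, plus strand: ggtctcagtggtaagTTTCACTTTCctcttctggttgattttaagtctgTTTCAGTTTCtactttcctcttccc
Gbp3, chr3:142559984-142560029, plus strand: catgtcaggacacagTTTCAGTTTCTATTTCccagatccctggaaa
Eif2ak2, chr17:78882530-78882569, minus strand: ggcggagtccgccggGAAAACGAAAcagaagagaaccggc

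Of 4 transcription factors of the pathway, Irf9 rose, Irf7 passed only with the block, and Irf1 and Stat2 passed in neither fit. Irf9, the DNA-binding subunit of the complex with Stat2, read 7.53, 7.31 and 7.42 log2 on the MCAO arrays against 6.79, 6.81 and 6.80 on the sham arrays. The sham values were almost identical and all MCAO values lay above them. Irf9 rose by 0.62 ± 0.079 log2 (SE, n = 3 each), or 1.54-fold (adjusted p = 0.0127), and its promoter window held no ISRE core. Irf7, the factor that amplifies type I interferon production, read 6.93, 6.87 and 7.17 in MCAO against 6.65, 6.50 and 6.57 in sham. Its difference of 0.42 ± 0.097 passed only with the block (adjusted p = 0.0109, against 0.137 without it). Stat2, which acts with Irf9 at the ISRE, read 6.63, 6.59 and 6.89 in MCAO and 6.63, 6.48 and 6.53 in sham. Its groups overlapped, with a difference of 0.15 ± 0.099 (adjusted p = 0.818), although its window held an ISRE core. Irf1, a factor induced by type II interferon whose window held a GAS, read 7.31, 7.34 and 7.82 in MCAO and 7.16, 7.32 and 7.37 in sham. MCAO 3 alone lay above all sham values, and the difference of 0.21 ± 0.14 did not pass (adjusted p = 0.843). Irf9 kept a difference of 0.57 to 0.67 whichever array was left out, but lost its call without MCAO 3, sham 2 or sham 3 (adjusted p = 0.0640, 0.0520 and 0.0900).

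None of the 4 nucleic acid sensors passed without the block, by limma, with 3 at an unadjusted p under 0.05. Ifih1, which encodes the long double-stranded RNA sensor MDA5, read 7.54, 6.92 and 7.26 in MCAO against 6.76, 6.59 and 6.55 in sham, with MCAO 1 highest. Its difference of 0.61 ± 0.15 passed only with the block (adjusted p = 0.169 without it and 0.00277 with it). Ddx58, which encodes the RNA end sensor RIG-I, read 7.13, 6.76 and 7.28 in MCAO against 6.70, 6.73 and 6.72 in sham. MCAO 2 lay just above sham 2 there, and the difference of 0.34 ± 0.13 did not pass in either fit (adjusted p = 0.457 and 0.0722). The RIG-I relative Dhx58 and the left-handed nucleic acid sensor Zbp1 differed by 0.23 ± 0.090 and 0.12 ± 0.095, with overlapping groups for Zbp1 only. The dimmer probe sets of Dhx58 differed by −0.11 and 0.16, and that of Zbp1 by 0.30. Even the brightest probe set of Dhx58 read below the median of all probe sets on every array.

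Among 7 RNA-binding effectors, Oasl2 and Ifit1 rose, and Ifit2, Ifit3 and Oas1a passed with the block. Oasl2, a ubiquitin-like relative of the oligoadenylate synthetases, read 7.76, 7.48 and 8.08 in MCAO against 6.70, 6.68 and 6.53 in sham, with all MCAO values well above the sham values. It rose by 1.13 ± 0.15 log2 (SE, n = 3 each), or 2.20-fold (adjusted p = 0.0134). Ifit1, whose protein binds RNA with foreign cap structures, read 7.23, 7.07 and 7.56 in MCAO against 6.60, 6.44 and 6.44 in sham. It rose by 0.79 ± 0.13, or 1.73-fold (adjusted p = 0.0349), and its window held 2 separate ISRE cores. Ifit3, which stabilises Ifit1 in a complex, read 8.98, 8.27 and 8.99 in MCAO against 7.99, 7.41 and 7.31 in sham. Its difference was larger than that of Ifit1, at 1.18 ± 0.24, but so was its spread, with sham 1 high in its group and MCAO 2 low in its own. Ifit3 passed with the block (adjusted p = 4.55e-04, against 0.0815 without it). It also passed without MCAO 2 (0.0428), without sham 1 (0.0419) and without both arrays numbered 1 (0.0188). Ifit2, its neighbour on chromosome 19, read 8.01, 7.31 and 7.67 in MCAO against 7.19, 6.90 and 7.003 in sham. The difference of 0.63 ± 0.17 and that of Oas1a, an oligoadenylate synthetase that activates RNA decay, at 0.52 ± 0.14, passed only with the block (adjusted p = 0.00155 and 0.00558, against 0.210 and 0.226 without it). Oasl2 lost its call without sham 2 or sham 3 (adjusted p = 0.0560 and 0.0923), and Ifit1 without MCAO 3, sham 1, sham 2 or sham 3 (0.0621, 0.0602, 0.127 and 0.190).

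Eif2ak2 and Adar, the other RNA-binding effectors, passed in neither fit. Eif2ak2 encodes PKR, the kinase that halts translation on double-stranded RNA, and read 7.20, 6.36 and 6.60 in MCAO against 6.74, 6.34 and 6.51 in sham. MCAO 1 was the highest array and the groups overlapped, with a difference of 0.19 ± 0.21 (adjusted p = 0.938) that was −0.049 without MCAO 1. Its dimmer probe sets differed by 0.26 and 0.65. Adar, the enzyme that edits adenosine to inosine in double-stranded RNA and so limits its sensing, read 8.91, 9.16 and 9.42 in MCAO against 9.11, 9.36 and 9.50 in sham. It was the 1 member with a lower mean in MCAO, by −0.16 ± 0.15 log2, with overlapping groups (adjusted p = 0.920).

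Of 3 enzymes of nucleotide and radical chemistry, Rsad2 passed with the block. Rsad2 encodes viperin, a radical enzyme that makes a chain-terminating nucleotide, and read 7.78, 7.28 and 7.74 in MCAO against 7.19, 6.81 and 6.95 in sham. Its difference of 0.61 ± 0.16 passed only with the block (adjusted p = 0.178 without it and 0.0011 with it). Cmpk2, its neighbour on chromosome 12 and a mitochondrial nucleotide kinase, read 8.73, 8.82 and 8.88 in MCAO against 8.64, 8.66 and 8.80 in sham, a difference of 0.11 ± 0.081 with overlapping groups (adjusted p = 0.867). The difference between the 2 genes was itself not tested. Samhd1, which depletes nucleotides needed for reverse transcription, differed by 0.13 ± 0.079 without overlap (adjusted p = 0.775), and of its 4 dimmer probe sets 1 had the opposite sign.

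All 3 membrane restriction factors rose, and Ifitm3 had the largest difference of the 37 genes. Ifitm3, whose protein blocks fusion of viruses in endosomes, read 10.49, 10.95 and 10.90 in MCAO against 8.89, 9.60 and 8.92 in sham. Sham 2 was the highest of its group and still lay below every MCAO array. Ifitm3 rose by 1.65 ± 0.21 log2 (SE, n = 3 each), or 3.13-fold (adjusted p = 0.0123). Ifitm2, its close relative on chromosome 7, read 7.73, 7.79 and 8.12 in MCAO against 6.82, 7.07 and 7.01 in sham, and rose by 0.92 ± 0.12, or 1.89-fold (adjusted p = 0.0150). Related transcripts of this family could share signal, which was not tested. Bst2 encodes tetherin, which holds budding virions at the cell surface and also marks plasmacytoid dendritic cells. It read 8.004, 7.38 and 7.77 in MCAO against 6.86, 6.69 and 6.67 in sham, and rose by 0.98 ± 0.15, or 1.97-fold (adjusted p = 0.0306). Ifitm2 lost its call without sham 3 (adjusted p = 0.0900). Ifitm3 did without MCAO 2, MCAO 3 or sham 3 (0.0521, 0.0732 and 0.0841), and Bst2 without MCAO 3, sham 1, sham 2 or sham 3 (0.136, 0.0531, 0.116 and 0.177).

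Of 7 interferon-induced GTPases 3 rose and 5 did with the block. Guanylate-binding and immunity-related GTPases attack vacuoles that hold pathogens and respond strongly to type II interferon. Gbp2 read 8.22, 8.23 and 8.34 in MCAO against 7.02, 7.25 and 6.83 in sham, the tightest MCAO group among the rising genes. It rose by 1.23 ± 0.11 log2 (SE, n = 3 each), or 2.34-fold (adjusted p = 0.00405), and its second probe set differed by 1.26. Gbp3, near it on chromosome 3, read 8.29, 7.45 and 7.67 in MCAO against 6.88, 6.36 and 6.51 in sham. The 2 genes had nearly the same difference, 1.22 ± 0.22 for Gbp3, but both arrays numbered 1 were high for Gbp3, and it passed only with the block (adjusted p = 1.62e-05, against 0.0553 without it). Leaving out MCAO 1 also brought Gbp3 past the threshold (adjusted p = 0.0355, difference 0.98), as did leaving out both arrays numbered 1 (0.00216, difference 1.13).

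Irgm1, the regulatory member of the immunity-related GTPases, read 8.30, 7.71 and 8.33 in MCAO against 7.28, 7.09 and 7.06 in sham. It rose by 0.97 ± 0.17, or 1.96-fold (adjusted p = 0.0443). Igtp, a second regulator of that family also known as Irgm3, read 7.55, 7.47 and 7.79 in MCAO against 6.91, 6.92 and 6.78 in sham. Its groups were tight and well apart, and it rose by 0.73 ± 0.099, or 1.66-fold (adjusted p = 0.0161). Iigp1, an effector of the same family, read 7.85, 6.96 and 7.32 in MCAO against 7.04, 6.45 and 6.50 in sham. Sham 1 lay above MCAO 2, so the groups overlapped, yet each MCAO array was above its same-numbered sham array, by 0.81, 0.51 and 0.82. Its difference of 0.71 ± 0.24 passed only with the block (adjusted p = 0.363 without it and 4.87e-04 with it). Irgm1 lost its call without MCAO 1, MCAO 3, sham 1, sham 2 or sham 3 (adjusted p = 0.0785, 0.174, 0.0751, 0.152 and 0.233), and Igtp without sham 2 or sham 3 (0.0584 and 0.106).

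The Mx genes, dynamin-like GTPases that trap viral nucleocapsids, did not pass in either fit. Mx1, which carries an inactivating deletion in most laboratory mouse strains, read 5.84, 5.85 and 5.97 in MCAO against 5.68, 5.70 and 5.64 in sham. That difference of 0.21 ± 0.072 had no overlap (adjusted p = 0.376, and 0.126 with the block). Mx2 read 6.51, 6.40 and 6.19 in MCAO against 6.34, 6.43 and 6.30 in sham, a difference of 0.011 ± 0.0965 (adjusted p = 0.993). Both genes read below the median of all probe sets on every array, so these values cannot settle whether they changed.

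**Figure D2:**
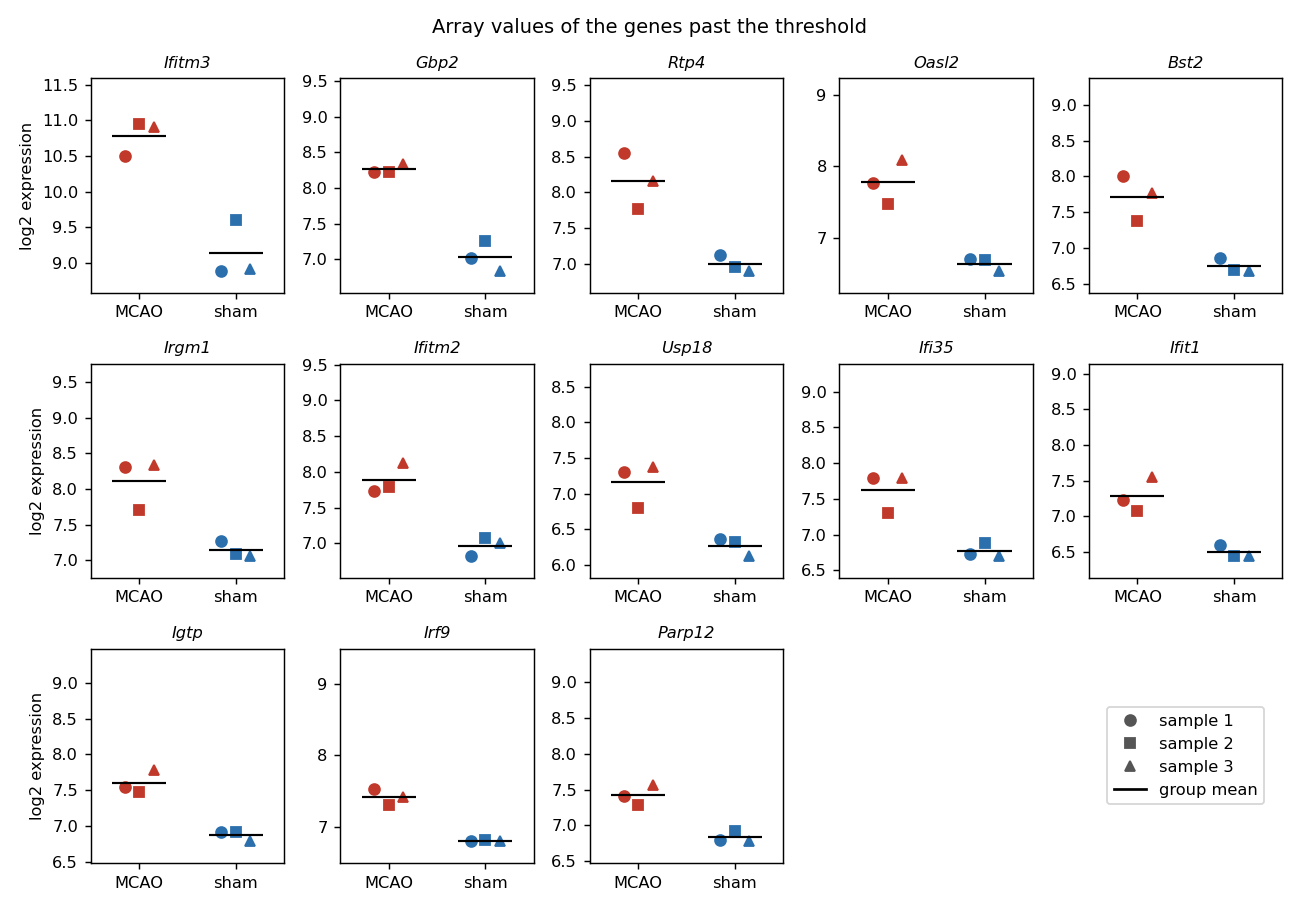
Quantile-normalised log2 expression on each array for the 13 interferon-stimulated genes past the threshold, with MCAO left and sham right in each panel, symbols for the sample numbers and a bar for the group mean. Every panel spans 3 log2 units, and in each the MCAO values lie above the sham values, from Ifitm3 at 10.49 to 10.95 against 8.89 to 9.60 down to Parp12 at 7.29 to 7.56 against 6.77 to 6.93.

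Of the conjugation pathway of Isg15, a ubiquitin-like protein attached to other proteins, Usp18 was measured. Usp18 removes Isg15 and also blocks signalling at the type I receptor. It read 7.31, 6.79 and 7.37 in MCAO against 6.36, 6.33 and 6.12 in sham, and rose by 0.89 ± 0.16 log2 (SE, n = 3 each), or 1.85-fold (adjusted p = 0.0488). This call was close to the threshold and was lost on the values as deposited (adjusted p = 0.0522) and without MCAO 1, MCAO 3, sham 1, sham 2 or sham 3 (0.0916, 0.187, 0.0925, 0.136 and 0.240).

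The ADP-ribosyltransferases Parp9, Parp12 and Parp14 read higher in MCAO on every array. Parp12, which binds RNA in stress granules, read 7.41, 7.29 and 7.56 in MCAO against 6.79, 6.93 and 6.77 in sham, and rose by 0.59 ± 0.093 log2, or 1.51-fold (adjusted p = 0.0316). Parp9 read 7.53, 7.07 and 7.20 in MCAO against 6.60, 6.73 and 6.52 in sham, a difference of 0.65 ± 0.13 (adjusted p = 0.0734, and 0.00357 with the block). The difference of Parp14, at 0.38 ± 0.095, likewise passed only with the block (0.162 without it and 0.0229 with it). Parp12 lost its call without MCAO 1, MCAO 3, sham 1, sham 2 or sham 3 (adjusted p = 0.0627, 0.105, 0.101, 0.0643 and 0.180).

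The remaining 5 genes are induced by interferon but share no family. Rtp4, which interferon induces in many cell types, read 8.55, 7.77 and 8.16 in MCAO against 7.12, 6.96 and 6.90 in sham. It rose by 1.17 ± 0.18 log2 (SE, n = 3 each), or 2.25-fold (adjusted p = 0.0300). The dimmer probe set of Rtp4 differed by 0.12, and the mean of its probe sets passed by limma (0.65, adjusted p = 0.0425). Ifi35 read 7.80, 7.30 and 7.79 in MCAO against 6.73, 6.88 and 6.70 in sham and rose by 0.86 ± 0.14, or 1.82-fold (adjusted p = 0.0372). Its brightest probe set is of a type that may bind related transcripts, its other probe sets differed by 0.51 and 0.18, and their mean did not pass (0.52, adjusted p = 0.0688). Trim30a, a restraint on inflammatory signalling in mouse macrophages, read 8.88, 7.44 and 7.94 in MCAO against 7.22, 6.84 and 6.74 in sham. MCAO 1 was far above the other arrays, the difference of 1.15 ± 0.33 had the widest standard error of the 37, and it passed only with the block (adjusted p = 0.00128, against 0.246 without it). Without both arrays numbered 1 the difference of Trim30a was 0.90 (adjusted p = 0.0316). Ifi27, a small mitochondrial membrane protein gene also read by a probe set that may bind related transcripts, differed by 0.71 ± 0.14 (adjusted p = 0.0771, and 0.00267 with the block). Xaf1, which antagonises inhibitors of apoptosis, differed by 0.39 ± 0.14 and passed in neither fit (0.410 and 0.0659), though it did without MCAO 2 (0.0486, difference 0.55). Rtp4 lost its call without MCAO 3, sham 1, sham 2 or sham 3 (adjusted p = 0.132, 0.0526, 0.113 and 0.175). Ifi35 lost its own without MCAO 1, MCAO 3, sham 1, sham 2 or sham 3 (0.0666, 0.153, 0.101, 0.0903 and 0.200).

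Compared within same-numbered samples, the interferon-stimulated genes differed less in the pair numbered 2 than in the others. The median difference over the 37 genes was 0.74 log2 for MCAO 1 minus sham 1, 0.37 for MCAO 2 minus sham 2 and 0.71 for MCAO 3 minus sham 3, where the medians of all genes were 0.00054, −0.027 and 0.021. In the 3 pairs 35, 34 and 35 members were higher in MCAO, and 33 were higher in all of them. Of the 18194 genes 9125, 7818 and 10005 were higher in those pairs and 3637 in all of them. MCAO 2 was the lowest MCAO array for 29 of the 37 members, and for 6128 of the 18194 genes. MCAO 1 was the highest for 19 (51.4%, against 32.0% of all genes). Sham 1 was the highest sham array for 17 (45.9%, against 29.2% of all genes). With 1 array of each number per group the pairs have no replicates, so their difference was not tested. The arrays numbered 2 also differed in cell type markers. Summed on the linear scale, 7 ependymal markers read 1.55 times the sham mean on MCAO 2 and 1.46 on sham 2, against 0.751 to 0.951 elsewhere. For 5 oligodendrocyte markers the sums were the lowest of each group there, at 0.794 and 0.864. Whether this bears on the smaller difference was not tested. Across the 37 genes, deviations from the group mean correlated between same-numbered arrays at 0.75, 0.63 and 0.23 for the numbers 1, 2 and 3. Those correlations are across genes of the same arrays, which are not independent replicates.

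**Figure D3:**
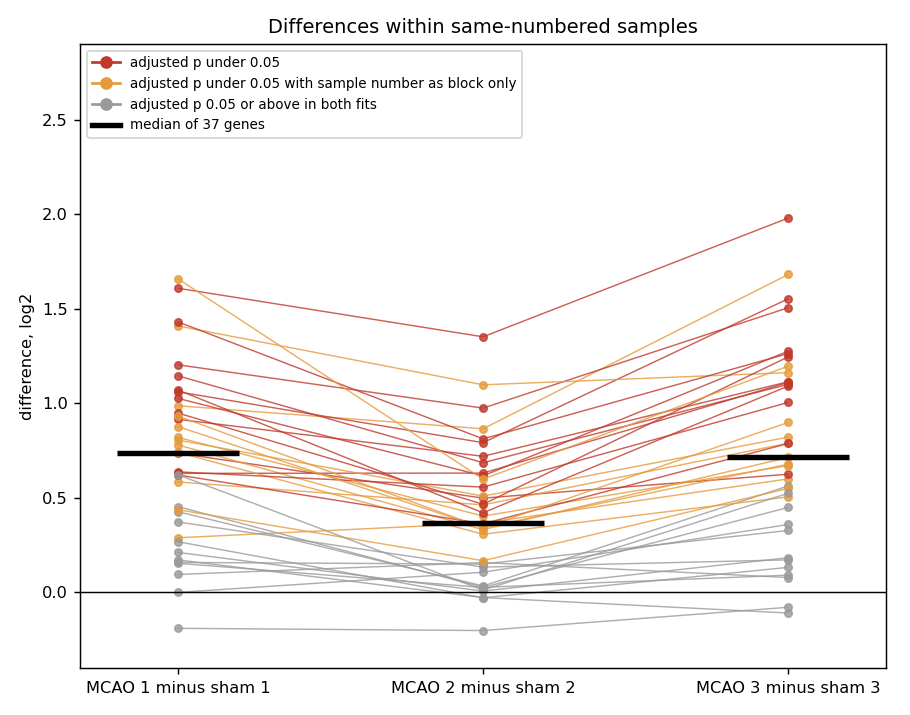
Difference within each same-numbered pair of samples (log2, MCAO minus sham) for the 37 interferon-stimulated genes, each gene a line through its 3 pair values, coloured by the fit it passed, with black bars for the median of the 37 genes. The medians are 0.74, 0.37 and 0.71, most lines dip at the pair numbered 2, and the red and orange lines stay above 0.

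Of 112 other genes of the interferon pathway, 95 were measured, and 6 rose, 0 fell and 89 did not pass, with a median difference of 0.15 log2. By limma without adjustment 41 were higher and 0 lower at p under 0.05, and 31 rose with the block. Of all genes 1.12% rose, 4.83% rose with the block, and 1151 of 18194 were higher at an unadjusted p under 0.05. These shares are the background for each pathway and marker list below. The interferon genes themselves showed no change past the threshold: of 10 measured ligands 0 passed in either fit, and 0 did at an unadjusted p under 0.05. Ifnb1, the first type I interferon that most cells make, read 6.18, 6.12 and 6.25 in MCAO and 6.13, 6.22 and 6.05 in sham. Ifng, the type II interferon, read 5.66, 5.80 and 5.70 in MCAO and 5.69, 5.71 and 5.72 in sham. The ligands with the smallest p-values were Ifnab, Ifna4 and Ifnz, with differences of 0.14, 0.093 and 0.065 log2 at adjusted p of 0.818 to 0.954. Of 15 listed ligands 5 were not measured, and most of the 10 measured read below the median of all probe sets in both groups. These values do not show whether interferon was made.

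Of the 6 receptor chains 0 passed without the block, with 2 at an unadjusted p under 0.05. The type I receptor chain Ifnar2 read 7.92, 7.81 and 7.94 in MCAO against 7.33, 7.54 and 7.63 in sham, a difference of 0.39 ± 0.095 (adjusted p = 0.154, and 0.0160 with the block). Its partner Ifnar1 differed by 0.062 ± 0.076. Il10rb, a chain shared by the receptors for type III interferon and interleukin-10, read 8.03, 7.58 and 7.72 in MCAO against 7.15, 7.16 and 7.17 in sham, a difference of 0.62 ± 0.11 (adjusted p = 0.0600, and 0.00231 with the block). The type II chains Ifngr1 and Ifngr2 differed by 0.20 ± 0.13 and 0.15 ± 0.12, and the type III chain Ifnlr1 by −0.047 ± 0.066, with all MCAO values just below the sham values.

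Downstream of the receptors, Jak2 and Tyk2 differed by −0.073 ± 0.085 and −0.022 ± 0.099, with Tyk2 0.013 higher in MCAO on the values as deposited. Stat3, which serves interleukin-6 family cytokines more than interferon, differed by 0.77 ± 0.19 and passed with the block (adjusted p = 0.156 without it and 2.92e-04 with it). Among 5 other interferon regulatory factors Irf8, a factor of microglia and macrophages, rose by 0.52 ± 0.090 (adjusted p = 0.0448), a call lost whichever array was left out (0.0573 to 0.180). Irf5 and Irf2 differed by 0.27 ± 0.10 and 0.24 ± 0.093 without passing. None of 12 measured genes of nucleic acid sensing upstream of interferon passed without the block, with 5 at an unadjusted p under 0.05 and 4 rising with the block. The adaptor Myd88 differed by 0.51 ± 0.14 (adjusted p = 0.222, and 0.0121 with the block), the DNA sensor gene Ifi204 by 0.55 ± 0.17 (0.289, and 0.0396 with the block) and Sting1, the adaptor of cytosolic DNA sensing, by 0.31 ± 0.095.

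Of 9 inhibitors of the pathway, Socs3 rose by 2.02 ± 0.28 (adjusted p = 0.0167, and 0.0600 without MCAO 2 or 0.113 without sham 3), while the phosphatase genes Ptpn2 and Ptpn6 differed by 0.24 each without passing. Socs1, the inhibitor most tied to interferon, differed by 0.019 ± 0.066 (adjusted p = 0.988). Of 49 further interferon-stimulated genes outside the list of 39, 4 rose without the block and 22 with it, with a median difference of 0.27. Lgals9, a galectin, rose by 1.08 ± 0.098, Lgals3bp, a galectin-binding protein gene, by 0.97 ± 0.10, and the immunoproteasome subunit gene Psmb8 by 0.94 ± 0.10 (adjusted p = 0.00405, 0.00719 and 0.00716). Psmb8 lost its call without sham 3 (adjusted p = 0.0607).

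**Figure D4:**
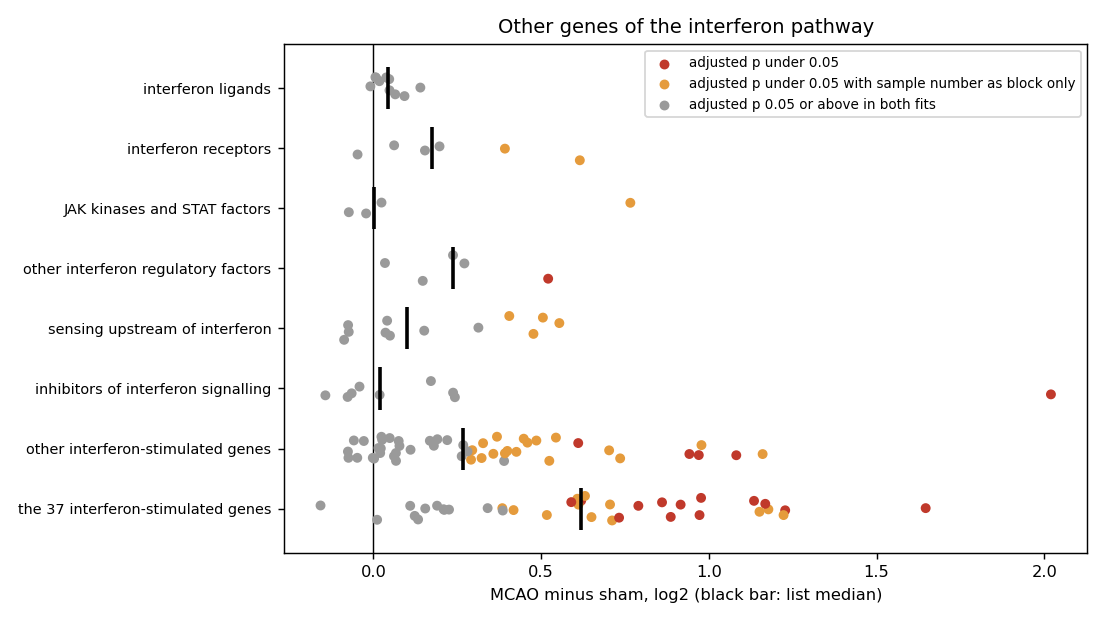
Difference between MCAO and sham (log2, MCAO minus sham) for the 95 other measured genes of the interferon pathway, 1 point per gene by list, above the 37 interferon-stimulated genes, with a black bar for each list's median. The 10 ligands lie between −0.0088 and 0.14, and the median of the 49 further interferon-stimulated genes is 0.27 against 0.62 for the 37.

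Some markers of microglia and of macrophages were also higher in MCAO. The expression of the 37 genes, summed on the linear scale, was 1.74, 1.49 and 1.77 times the sham mean on MCAO 1, 2 and 3, against 1.00, 1.03 and 0.967 on the sham arrays. Over 9 measured microglial markers, of which 3 rose, and 7 with the block, the sum was 2.14, 1.39 and 1.63 times the sham mean in MCAO against 1.02, 0.967 and 1.02 in sham. Csf1r, the receptor gene that microglia need to survive, made up 46.4% of that sum in MCAO and 49.2% in sham, and passed only with the block (0.65 log2, adjusted p = 0.340 without it and 0.0133 with it). For 9 measured markers of monocytes and macrophages, of which 4 rose, and 5 with the block, it was 1.82, 1.39 and 1.65 in MCAO against 0.989, 1.03 and 0.984 in sham. Lyz2, the lysozyme gene of myeloid cells, rose 3.07-fold and made up 34.4% of that sum in MCAO and 17.6% in sham. Ccr2, the receptor of recruited monocytes, and Itgal differed by 0.039 and −0.047 with overlapping groups, and Cd163, of resident macrophages, by −0.13 with all MCAO values below the sham values, none of these passing in either fit. In all 3 lists MCAO 2 was the lowest MCAO array. Neutrophil markers (0 of 9 past the threshold by limma, 2 at an unadjusted p under 0.05) summed to 1.03 to 1.12 in MCAO and 0.933 to 1.05 in sham. Lymphocyte markers (0 of 9, and 0 unadjusted) summed to 0.89 to 1.08 in MCAO and 0.845 to 1.09 in sham. Cd4 made up 35.7% of that sum in MCAO and 38.7% in sham. Most neutrophil and lymphocyte markers read below the median of all probe sets, so these sums cannot settle whether those cells changed. Most markers of monocytes and macrophages also read below that median on the sham arrays, and Chil3, Cd163 and Itgal did so in MCAO as well. The sum for monocytes and macrophages has the same limit. The sum of 4 markers of plasmacytoid dendritic cells was 0.888 to 0.955 in MCAO and 0.991 to 1.02 in sham. Of these 4 markers 0 passed, with 1 lower by limma at an unadjusted p under 0.05. Cox6a2 and Klk1 made up most of their sum (35.1% and 36.6% in MCAO). Ccr9 and Spib, read below that median, differed by 0.054 and −0.035. For 7 endothelial markers the sum was 0.922 to 1.10 in MCAO and 0.954 to 1.02 in sham, and for 8 astrocyte markers, of which 2 rose, 1.12 to 1.38 in MCAO and 0.90 to 1.09 in sham. With the block 4 astrocyte markers rose, among them Gfap, an intermediate filament gene of reactive astrocytes, at 2.69 log2 (adjusted p = 0.140 without it and 5.65e-07 with it). Gfap made up 16.9% of the astrocyte sum in MCAO and 3.19% in sham. Slc1a2, the largest part of that sum (33.9% in MCAO and 51.2% in sham), differed by −0.28 log2. It was lower in MCAO in every same-numbered pair. Gja1, Sox9 and S100b differed by 0.16, 0.12 and 0.030, and none of these 3 passed in either fit. Several interferon-stimulated genes are expressed by microglia and macrophages, and the part of these cells, or of astrocytes, in the differences was not tested.

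**Figure D5:**
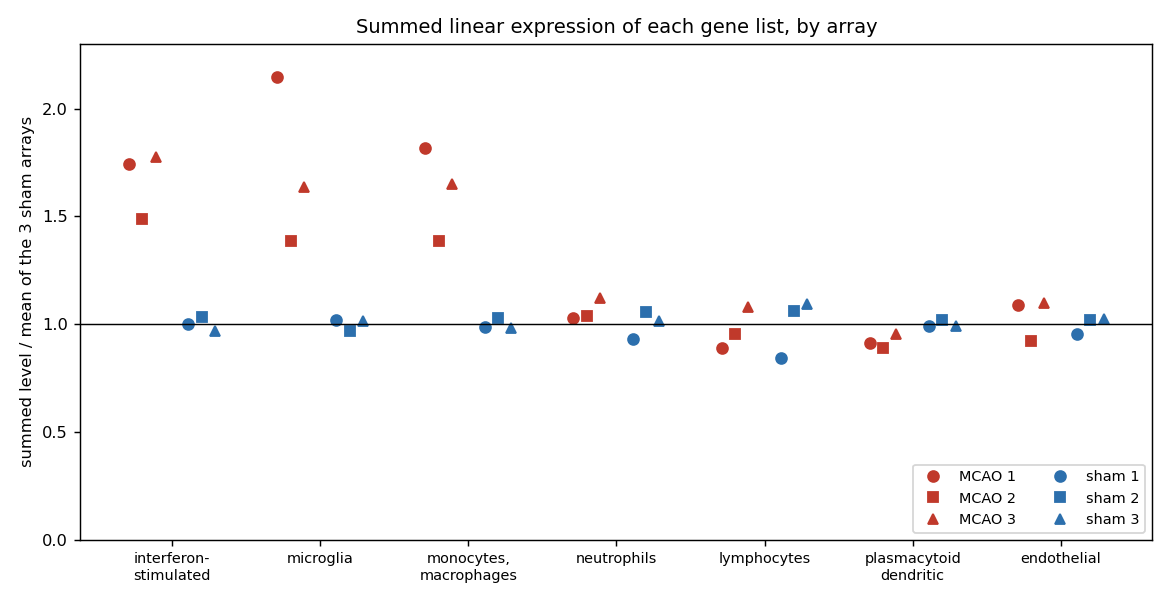
Linear expression summed over each gene list on every array, divided by the mean of the 3 sham arrays, with MCAO left of sham within each list. The interferon-stimulated, microglial and monocyte lists lie above all sham arrays on the 3 MCAO arrays (1.49 to 1.77, 1.39 to 2.14 and 1.39 to 1.82), while neutrophil, lymphocyte and endothelial lists overlap between groups. The plasmacytoid dendritic list lies below all sham arrays (0.888 to 0.955). The astrocyte list, not drawn, also lay above all sham arrays (1.12 to 1.38).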

How the data were processed

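The deposited values are log2 expression values for 45101 probe sets on 6 one-colour arrays. How the authors corrected background, summarised probes and normalised arrays is not given in the sources used here. Deposited medians agreed between arrays but upper quantiles did not (90th percentiles 8.85 to 9.06), so the log2 values were quantile-normalised. Only probe sets with 1 symbol in the array's annotation (34958) were used, the brightest standing for a gene. Of the 37 genes described, 17 had several probe sets, and 22 of the 26 probe sets not chosen had the same sign. The 4 of opposite sign were those of Adar, Dhx58, Parp14 and Samhd1, with 0 at an unadjusted p under 0.05 by limma.

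MCAO and sham were compared with limma 3.58.1 in R 4.3.3 (lmFit, eBayes), 2-sided, with Benjamini-Hochberg adjustment over 18194 genes and a threshold of 0.05. A rank or permutation test of 3 arrays against 3 cannot go below p = 0.1. The number of arrays limits the precision. Both groups carry the sample numbers 1 to 3, and the labels do not say what the numbers mark. Across genes, same-numbered arrays deviated from their groups together (correlations of 0.77, 0.44 and 0.48), so the numbers were taken to pair the samples. This pairing was read from the same values that the block fit tests, and no other pairing was compared. A fit with the sample number as a block is given where it changed a call. Calls that passed only with the block depend on that pairing.

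Genes named are all 39 listed, all receptors and the 3 smallest p-values of each other pathway list. Ifnb1, Ifng, Ifnar1 and Socs1 were named for their roles. Single cell type markers were named after their values were seen. Genes and lists were chosen with earlier results of these data known. Promoters were searched in Python 3.11.15. Alternatives are given in the closing section.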

Additional observations from a re-analysis of the deposited data

How the results depend on the processing

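Alternatives were run for the counts, the median difference and each named gene. With the sample number as a block (the replicate block), 25 members rose, 878 genes rose and 236 fell, against 203 and 3 without it, and 31 other pathway genes rose. The same fit to the deposited values gave 26, 766, 51 and 29, and without the block limma called 0 falling genes on those values. With only genes above the median level tested, 20 members kept a value, their median difference was 0.89 and 1 gene fell. Without both arrays numbered 1, 26 genes fell. Leaving out 1 array at a time gave 1 to 14 rising members, 44 to 188 rising genes, 0 to 21 falling genes and 2 to 5 rising pathway genes. The cause of these shifts was not tested, though these fits have fewer arrays. Signs turned for uncalled genes: leaving out 1 array gave Eif2ak2 −0.049 (without MCAO 1) to 0.37, and Mx2 −0.059 to 0.098, below 0 without MCAO 1 (−0.059), MCAO 2 (−0.0044) or sham 3 (−0.015) and −0.069 without both arrays numbered 1, Ifnz −0.0029 (without sham 1) to 0.12 and −0.031 without both arrays numbered 1, and Tyk2 read 0.013 on deposited values, also with the block, and −0.11 to 0.070 (without sham 2) with 1 array left out. Each of the 13 rising members kept its direction under every alternative that gave it a value. Averaging each gene's probe sets, 12 members rose, and with an intensity trend 16.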

Other observations

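Beyond the listed genes, 508 measured genes held an ISRE core in the promoter window. Of these 10 rose (1.97%), against 139 of 13918 without a core, the 39 listed genes left out of both (1.00%), while the fit blocked on sample number gave 38 (7.48%, against 4.68%). Their median difference was 0.0043 log2, against −0.0058 without a core, so as a group they lay near the median of all genes. The 10, named after their values were seen, were Tgm1 (1.64 log2), Hspb6 (1.58), Aif1 (1.10), Lgals9 (1.08), D17H6S56E-5 (1.01), Srgn (0.98), Cybb (0.87), Shisa5 (0.84), Cdca3 (0.78) and Ncf1 (0.71). Aif1, Cybb and Ncf1 are genes of microglia and other phagocytes, the last 2 encoding subunits of the phagocyte oxidase. Within the 37, the 16 genes with a core had a median difference of 0.85 and the 11 without one 0.42, with 7 and 4 rising. These groups were not compared by a test.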
